A study of Rattus norvegicus with 11 samples.

Results

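Cells take up cholesterol from lipoproteins, move it out of the lysosome, store part of it as ester and pass the rest back to lipoproteins outside. The 8 genes described here encode proteins of these steps: the receptors Lrp1 and Scarb1, the lysosomal exit proteins Npc1 and Npc2, the esterifying enzyme Soat1, the efflux transporters Abca1 and Abcg1, and the apolipoprotein Apoe. They were taken by name for these roles, with earlier results of these data known, and are 8 of the 25275 genes in the count table. All 8 passed the filter on low counts, together with 12838 other genes (12846 tested).

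RNA was sequenced from the retroperitoneal white fat of 11 female Wistar rats, 1 library per rat. The western diet began at an age of 10 weeks and ran for 6 weeks before the ovaries were removed. All rats were then given degarelix, which blocks the receptor of gonadotropin-releasing hormone and so reduces the follicle-stimulating hormone (FSH) that the pituitary makes. The osmotic pumps of 6 rats held vehicle (degarelix only), and those of 5 rats gave 6 µg FSH per kg body weight each day (degarelix plus FSH). Food was restricted for 12 days and free for another 7, and the rats, by then 19 weeks old, were fasted for 4 h before the fat was collected. Both groups thus lacked ovaries and had the same drug and diet, and differed in the FSH supplied. No group with ovaries or without degarelix was analysed here. Every difference below is degarelix plus FSH relative to degarelix only.

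Fat cells hold much of the body's free cholesterol, in their membranes and at the surface of the lipid droplet, and store little of it as ester. When sterol is plentiful, the liver X receptors (LXR), which act as partners of the retinoid X receptors, raise transcription of efflux genes such as Abca1, Abcg1 and Apoe. When sterol is scarce, SREBP-2 raises the genes of sterol synthesis and of lipoprotein uptake. Macrophages in fat also carry out uptake, esterification and efflux, so the bulk level of these genes mixes cell types.

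Total counts lay between 13163021 and 23694602 per library. The tissue label was checked against adipocyte markers, whose summed level lay between 37239 and 48970 CPM in the 11 libraries (CPM, the gene's share of the library's TMM-scaled total count), with Fabp4 the most abundant. Kidney markers were near 0, with 5 of 8 at 0 in every library. Liver markers were detected: the sum over 7 genes lay between 496 and 2363 CPM in the 11 libraries. Alb was the most abundant of them, with a mean of 1006 CPM, and the source of this RNA was not tested. Of 7 adrenal cortex markers, Cyp11b2, Hsd3b2 and Nr5a1 were at 0 in every library. The other 4 were detected, and the sum lay between 81.5 and 114 CPM in the 11 libraries, with Cyp11a1 the most abundant. Macrophage markers stood apart in degarelix only replicate 4, at 716 CPM summed over 12 genes against 363 to 473 CPM in the other 5 rats of that group, and 9 of the 12 had their highest value of the group there. That library also had the highest degarelix only value of Lrp1, Soat1, Abca1 and Abcg1, so results on these genes are given with and without it.

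None of the 8 genes passed the threshold. In the quasi-likelihood test of edgeR, adjusted over all 12846 genes by the Benjamini-Hochberg method, 0 of 8 reached an adjusted p of 0.05, where 292 genes did (2.27% of those tested). At an unadjusted p under 0.05 stood 2 of the 8, Scarb1 and Apoe, against 22.6% of all genes. With DESeq2, 1 of the 8 passed, Scarb1, where 1135 of the 11297 genes it gave an adjusted p did (10.0%). With limma-voom, 0 of the 8 passed, against 2.52% of all genes. No gene of the 8 separated the groups completely, against 4.34% of all genes. Of the 8 log2 changes, 4 were above 0 and 4 below, with a median of -0.04, beside a median of 0.0081 over all genes. On simulated data of this design the test recovered 7 of 50 genes changed 1.3-fold, 24 of 50 at 1.5-fold and 38 of 50 at 2-fold. In that setting most changes of 1.3-fold, which is above every fold fitted for the 8 genes, were missed. There 121 of 12758 genes passed, fewer than the 292 here. The changed genes were drawn at random, so the recovery for the 8 genes themselves was not measured.

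**Figure D1:**
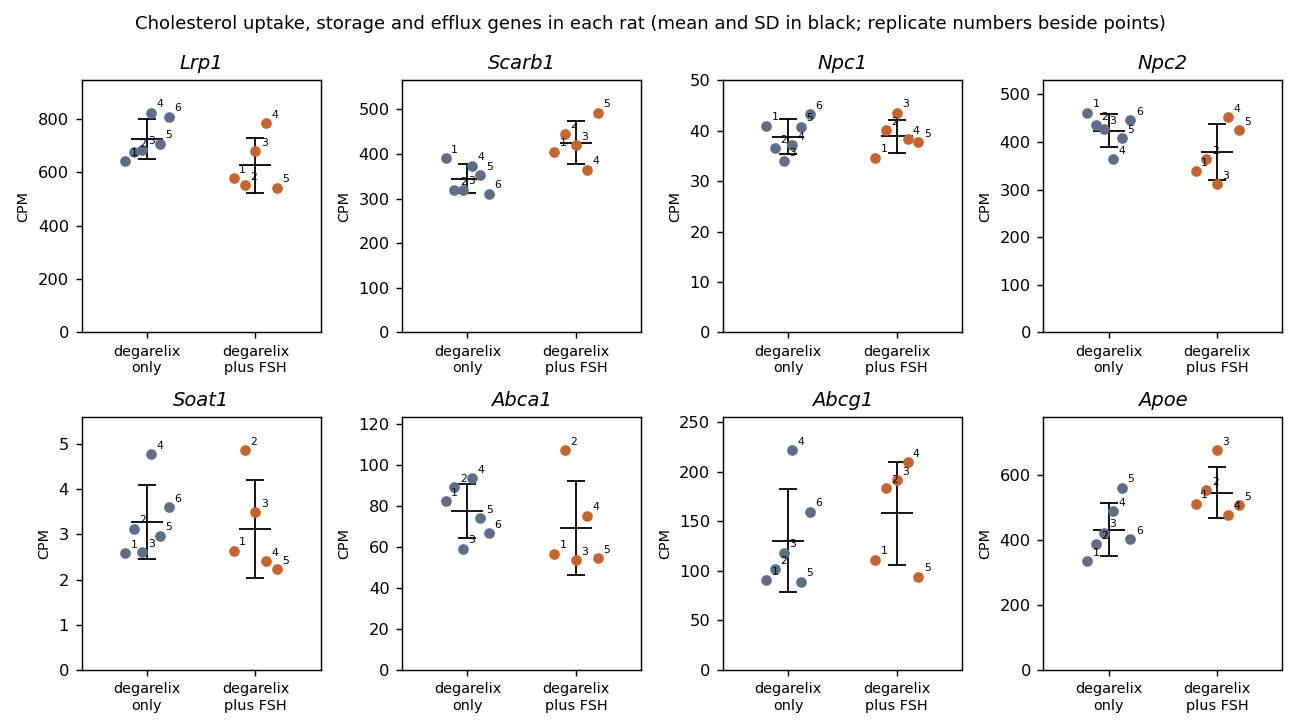
Level of each of the 8 genes in every rat, in CPM on a linear axis from 0, with degarelix only (n = 6) in blue and degarelix plus FSH (n = 5) in orange. Black marks give the mean and SD and small numbers the replicate. The groups overlap in all 8 panels, least in Scarb1, where 4 of 5 FSH values lie above every degarelix only value.

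Scarb1 and Lrp1 bring lipoprotein lipid into the cell in different ways. Scarb1 encodes the scavenger receptor SR-BI, which takes cholesteryl ester from high-density lipoprotein at the cell surface without taking in the particle and also lets free cholesterol leave. In the degarelix only rats Scarb1 (ENSRNOG00000000981) had a lowest value of 311 CPM, a median of 336 and a highest of 391. The 5 FSH rats had 405, 445, 419, 365 and 493 CPM (replicates 1 to 5, as in every such series here). Thus 4 of the 5 FSH rats lay above every degarelix only rat, and the fifth, replicate 4, lay within their range. The means were 345 ± 32.9 CPM (SD, n = 6) and 425 ± 47.6 CPM (SD, n = 5), a log2 change of 0.30 ± 0.09 SE (1.24-fold, 95% interval 1.08 to 1.42). The adjusted p in edgeR's test was 0.0888, so the gene did not pass. DESeq2 gave an adjusted p of 0.0231, and edgeR without FSH replicate 4 gave 0.0465. In that last fit 553 genes of the whole table passed, against 292 with all rats. Over all 19 alternatives the adjusted p ranged from 0.0231 to 0.234.

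Scarb1 is also made by endothelial cells and by steroid-producing cells. The summed level of 8 endothelial markers was 1631 ± 170.3 CPM without FSH (range 1424 to 1931, n = 6) and 2045 ± 392.9 CPM with FSH (range 1617 to 2636, n = 5), a ratio of 1.25 with p = 0.0325 in an exact permutation test (two-sided; 0.267 adjusted over 13 marker lists). None of these 8 markers was at 0 in any library. All 8 had a log2 change above 0, with a median of 0.32. At an unadjusted p under 0.05 stood 5 of the 8, and 1 passed in edgeR's test, against 22.6% and 2.27% of all genes. The part of endothelial RNA in the Scarb1 values was not tested. In whole tissue, more cells of a type and more RNA per cell cannot be told apart. The summed adrenal cortex markers were 81.5 to 114 CPM without FSH and 83.5 to 114 CPM with FSH (ratio 0.985, exact permutation p = 0.842). Cyp11a1 was the most abundant of them.

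Lrp1 encodes a large endocytic receptor that takes in remnant lipoproteins carrying Apoe and is abundant in fat cells. Its level (ENSRNOG00000025053) in the degarelix only rats was lowest at 641 CPM, with a median of 696 and a highest of 824. With FSH it was at 577, 552, 680, 783 and 543 CPM. FSH replicates 1, 2 and 5 lay below every degarelix only rat, while FSH replicate 4 lay near the top of their range. The mean was 723 ± 75.2 CPM (SD, n = 6) without FSH and 627 ± 103 CPM (SD, n = 5) with FSH. The log2 change of -0.21 ± 0.11 SE did not pass (edgeR adjusted p = 0.295), and its 95% interval runs from 0.732-fold to 1.03-fold. Its log2 change stayed between -0.30 and -0.16 in all 19 alternatives, none of which passed. Without degarelix only replicate 4 it was -0.17 (adjusted p = 0.392).

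Npc1 and Npc2 work as a relay in the lysosome: the soluble Npc2 binds cholesterol freed from lipoproteins and hands it to Npc1, a membrane protein that passes it out. Npc1 (ENSRNOG00000012016) was the steadiest of the 8. Its degarelix only values ran from 34.0 to 43.3 CPM with a median of 38.9. The FSH rats had 34.6, 40.1, 43.6, 38.3 and 37.7 CPM. The means were 38.8 ± 3.46 CPM (SD, n = 6) and 38.9 ± 3.28 CPM (SD, n = 5), and the groups covered nearly the same range. Its fitted ratio was 1.00, with a 95% interval of 0.893 to 1.12, the narrowest of the 8 (edgeR adjusted p = 0.990). Its sign turned under several alternatives, at values near 0.

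Npc2 (ENSRNOG00000012062) ran from 364 to 461 CPM in the degarelix only rats, with a median of 431. The FSH rats had 338, 364, 311, 452 and 425 CPM. FSH replicates 1 and 3 lay below every degarelix only rat, and FSH replicate 2 lay just above the lowest of them. FSH replicates 4 and 5 also lay inside the degarelix only range. The mean was 423 ± 34.2 CPM (SD, n = 6) against 378 ± 58.8 CPM (SD, n = 5). Its log2 change of -0.16 ± 0.10 SE did not pass (edgeR adjusted p = 0.360; 95% interval 0.765-fold to 1.04-fold). It was -0.10 without FSH replicate 3 (adjusted p = 0.596).

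Soat1 encodes the sterol O-acyltransferase of the endoplasmic reticulum, which joins cholesterol to a fatty acid for storage and is prominent in macrophages. It was the most thinly counted of the 8 genes, with 41 to 104 counts per library, so counting alone gives an SD of 15.6% at the lowest count. Soat1 (ENSRNOG00000004111) had a lowest degarelix only value of 2.59 CPM, a median of 3.05 and a highest of 4.78. The 5 values with FSH were 2.64, 4.87, 3.49, 2.41 and 2.23 CPM. The highest value of each group was in degarelix only replicate 4 and FSH replicate 2, the rats with the highest summed macrophage markers of their groups (716 and 633 CPM). The part of macrophage RNA in these values was not tested. The log2 change of -0.08 ± 0.23 SE did not pass (edgeR adjusted p = 0.873; 95% interval 0.666-fold to 1.35-fold), and it was 0.06 without degarelix only replicate 4.

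Abca1 and Abcg1 are the paired efflux transporters. Abca1 loads phospholipid and cholesterol onto lipid-poor apolipoprotein A-I, and Abcg1 passes cholesterol to particles that already carry lipid. Abca1 is a textbook LXR target, and its promoter is shown because the element that LXR binds lies close to the transcription start. The stretch runs from 160 to 26 bases before the start (RefSeq, GRCr8, chr5:72596499-72596633, minus strand, printed 5′ to 3′ on the gene's strand), and the capitals mark an E-box (CACGTG) and the LXR element.
Abca1 promoter: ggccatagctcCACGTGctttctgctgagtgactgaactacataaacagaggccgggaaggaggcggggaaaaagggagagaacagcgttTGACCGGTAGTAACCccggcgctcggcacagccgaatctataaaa
The element lies 70 to 56 bases before the start and is read on the other strand. It was searched for as a pair of shortened half-sites, each GGTTA or GGTCA, in the same direction with 5 bases between them. The 5 bases are counted between these shortened letters and are not the spacing of the full half-sites. Both strands of the 250 bases before each start were searched. The form was taken from what is known of LXR elements, this one included, so the match is a description. It occurs in 52 of 33469 promoter windows (0.155%). RefSeq windows were matched for 6 of the 8 genes (not for Scarb1 and Abcg1), and of those 6 only Abca1 held the pair. The E-box, which does not overlap it, lies 149 to 144 bases before the start of Abca1. It was found in no other gene of the 6 and in 5.59% of all windows.

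Abca1 (ENSRNOG00000018126) ran from 59.1 to 93.3 CPM in the degarelix only rats, with a median of 78.0. With FSH, Abca1 was at 56.5, 107, 53.4, 75.0 and 54.3 CPM. FSH replicates 1, 3 and 5 lay below every degarelix only rat and FSH replicate 2 lay above them all, so the FSH group spanned the whole range of the other. The means were 77.3 ± 13.2 CPM (SD, n = 6) and 69.3 ± 22.9 CPM (SD, n = 5). Its log2 change of -0.16 ± 0.19 SE did not pass (edgeR adjusted p = 0.651; 95% interval 0.672-fold to 1.19-fold). The log2 change was -0.37 without FSH replicate 2 and -0.10 without degarelix only replicate 4, and neither passed (adjusted p = 0.206 and 0.796). It was -0.09, -0.08 and -0.08 without FSH replicate 1, 3 or 5 (adjusted p = 0.837, 0.856 and 0.846).

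Abcg1 (ENSRNOG00000001158) varied the most between rats of one group. It ran from 89.2 to 222 CPM in the degarelix only rats, with a median of 110, and the highest value was again that of replicate 4. Among the FSH rats it was at 111, 183, 192, 210 and 93.9 CPM. Of the FSH rats, 3 lay near the upper end of the degarelix only range and 2 near its lower end. The means were 130 ± 52.0 CPM (SD, n = 6) and 158 ± 51.9 CPM (SD, n = 5), a log2 change of 0.28 ± 0.28 SE that did not pass (edgeR adjusted p = 0.587; 95% interval 0.791-fold to 1.86-fold). Without degarelix only replicate 4 the log2 change was 0.50 (adjusted p = 0.235). It was 0.15 without FSH replicate 4 (adjusted p = 0.792) and 0.42 without FSH replicate 5 (adjusted p = 0.426), so the fitted value depended on several single rats.

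Apoe encodes the apolipoprotein that fat cells and macrophages secrete, which carries cholesterol outward and serves as the ligand of Lrp1. Its degarelix only values (ENSRNOG00000018454) had a lowest of 333 CPM, a median of 411 and a highest of 560. The values with FSH were 511, 552, 676, 477 and 506 CPM. All 5 FSH rats lay above the degarelix only mean, but only replicate 3 lay above every degarelix only rat. The means were 431 ± 80.4 CPM (SD, n = 6) and 544 ± 78.3 CPM (SD, n = 5), a log2 change of 0.34 ± 0.13 SE (1.26-fold, 95% interval 1.03 to 1.54). It did not pass over all genes (edgeR adjusted p = 0.167), and none of the 19 alternatives brought it past (adjusted p from 0.102 to 0.307). The summed macrophage markers were 461 ± 132.4 CPM (range 363 to 716, n = 6) without FSH and 493 ± 112 CPM (range 330 to 633, n = 5) with FSH, a ratio of 1.07 (exact permutation p = 0.688), and none of the 12 was at 0 in every library (Marco was at 0 in 7 of 11). The part of other cell types in the Apoe values was not tested.

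**Figure D2:**
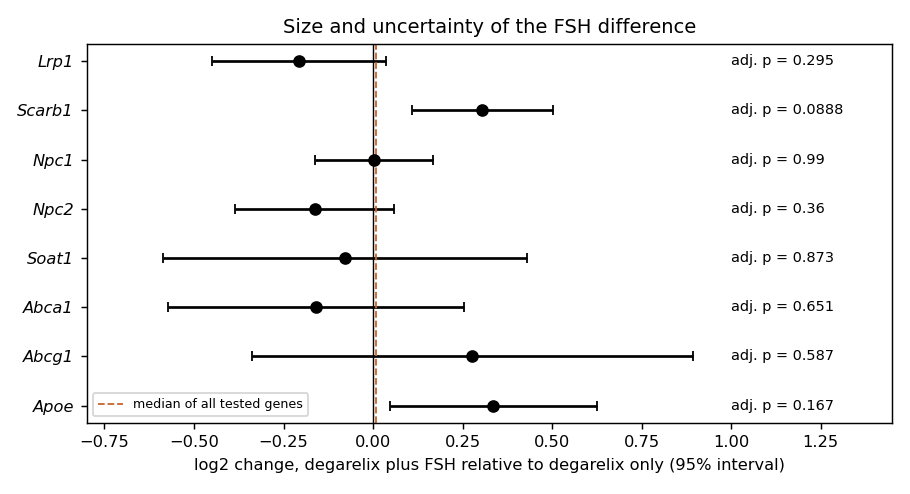
Fitted log2 change of each gene with FSH and its 95% interval from edgeR's quasi-likelihood fit, with the adjusted p over all 12846 genes at the right. The dashed line is the median of all tested genes (0.0081). Intervals for Scarb1 and Apoe lie above 0 before adjustment, and that of Abcg1 is the widest.

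The 8 genes differed in how much they varied between rats of one group, a measure that the choice of genes did not use. The SD of log2 CPM within groups was 0.13 for Npc1, 0.15 for Scarb1, 0.17 for Npc2, 0.19 for Lrp1, 0.24 for Apoe, 0.34 for Abca1, 0.38 for Soat1 and 0.52 for Abcg1, beside a median of 0.19 over all tested genes. Thus 26.5% of tested genes varied less than Npc1, and 90.6% varied less than Abcg1. The 3 most variable were both efflux transporters and the esterifying enzyme, while the lysosomal pair and the receptors were at or below the median. Soat1 has few counts, which adds to its spread. Abcg1 has 1441 to 4830 counts per library, where counting gives an SD of at most 2.63%.

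**Figure D3:**
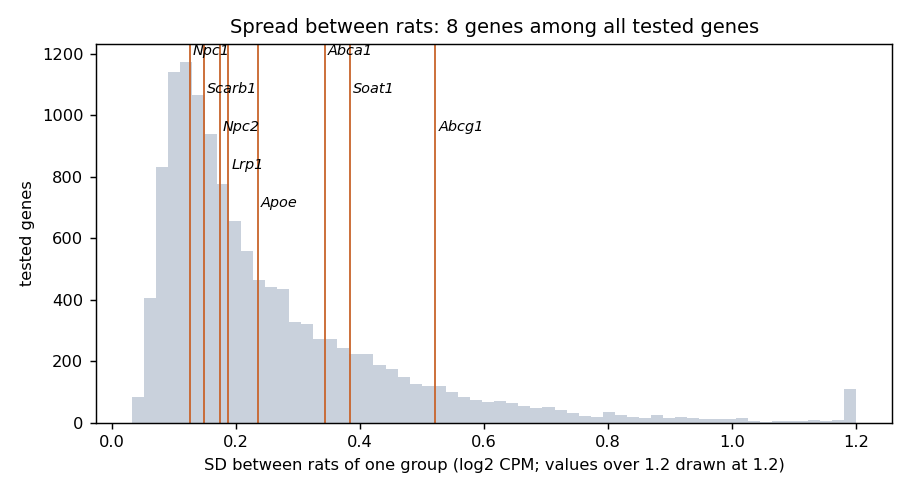
Histogram of the SD of log2 CPM between rats of one group (pooled over both groups) for all 12846 tested genes, with orange lines at the 8 genes. Npc1 lies at 0.13 and Abcg1 at 0.52, at opposite ends of the 8.

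How the 8 genes moved together from rat to rat was examined on log2 CPM centred on each group's mean, in 44 relations (28 pairs of the genes, and each gene with the summed macrophage and the summed adipocyte markers). No relation passed after Benjamini-Hochberg adjustment (7 did at an unadjusted p under 0.05). The strongest by permutation was a negative one between Npc2 and Apoe, with Pearson's r = -0.71 (permutation p = 0.00705, adjusted 0.223) and Spearman's rho = -0.84 (permutation p = 0.0021, adjusted 0.0924) over 11 rats. Without FSH replicates 3 and 4, the farthest from the median of Npc2, r was -0.59. Lrp1 and Abcg1 had r = 0.77 (permutation p = 0.0101, adjusted 0.223) and rho = 0.76 (permutation p = 0.00878, adjusted 0.193), and r = 0.66 without degarelix only replicate 4 and FSH replicate 4. Abcg1 and the macrophage markers had r = 0.70 (permutation p = 0.0268, adjusted 0.284) and rho = 0.46 (permutation p = 0.176, adjusted 0.658), and r was 0.66 without degarelix only replicate 4 and FSH replicate 5. Soat1 and the macrophage markers had r = 0.65 (permutation p = 0.0452, adjusted 0.284) and rho = 0.35 (permutation p = 0.334, adjusted 0.81). That relation rested on degarelix only replicate 4 and FSH replicate 2, without which r was 0.02. Soat1 and Abcg1 had r = 0.68 (permutation p = 0.0335, adjusted 0.284) and rho = 0.51 (permutation p = 0.136, adjusted 0.658), and r = 0.53 without the same 2 rats. The adipocyte markers, summed, had r = 0.68 with Lrp1 (permutation p = 0.0309, adjusted 0.284) and rho = 0.56 (permutation p = 0.0766, adjusted 0.488), and r = 0.53 without degarelix only replicate 4 and FSH replicate 4. With Abcg1 they had r = 0.65 (permutation p = 0.0433, adjusted 0.284) and rho = 0.73 (permutation p = 0.0215, adjusted 0.315), and r = 0.66 without degarelix only replicate 4 and FSH replicate 5.

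Among all tested genes with a symbol of their own, the gene most like each of the 8 from rat to rat was found by the highest Pearson's r on the same centred values over 11 rats. These are the extremes of a search over all tested genes and carry no test. For Soat1 it was the receptor tyrosine kinase Axl (r = 0.99) and then Matk (0.95), for Lrp1 it was Svil (0.97) and Fat1 (0.97), and for Abcg1 it was Cab39 (0.97) and Rabgap1l (0.95). For Apoe it was Slc39a6 (0.95) and Gas2 (0.92), for Npc1 it was Usp49 (0.94) and Zbtb42 (0.92), and for Npc2 it was Slc25a30 (0.93) and Fam222b (0.91). Scarb1 and Abca1 had looser companions, with Gpsm3 (0.87) and Rps15 (0.85) for Scarb1 and Brsk1 (0.87) and Sf3a1 (0.86) for Abca1. Of these 16 genes only Slc25a30 passed the threshold between groups (log2 change -0.77, edgeR adjusted p = 0.0448).

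Around the 8 genes, 6 wider lists of the pathway were read from the same fit. They were drawn up with earlier results of these data known, so the shares below describe them and do not test the pathway. Together they hold 86 tested genes, the 8 included, of which 6 passed (6.98%, beside 2.27% of all genes), all of them lower with FSH (1.07% of all genes passed as lower and 1.21% as higher). Of those 6, 4 were SREBP-2 target genes, the other 2 were Osbp and Rxra, and none was a lipoprotein receptor, an esterifying enzyme, an efflux transporter or an apolipoprotein. Counts of list members by the other rules below stand beside the shares over all genes given above: 22.6% at an unadjusted p under 0.05, 10.0% with DESeq2 and 2.52% with limma-voom.

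Of 15 tested lipoprotein receptors and regulators, 0 passed in edgeR's test (6 at an unadjusted p under 0.05; 4 with DESeq2 and 1 with limma-voom), with 7 log2 changes above 0, 8 below and a median of -0.04. Scarb1 had the smallest p of those reported here. Lrp1 and Scarb1, both lipoprotein receptors, had log2 changes of -0.21 and 0.30, and whether these differ from each other was not tested.

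Of 19 tested genes of lysosomal exit and sterol transport, 1 passed, as lower: Osbp, which exchanges sterol for a phosphoinositide between the endoplasmic reticulum and the Golgi. It went from 101 ± 4.46 CPM (SD, n = 6) to 84.7 ± 3.69 CPM (SD, n = 5), with no overlap of the groups (log2 change -0.25 ± 0.05 SE, edgeR adjusted p = 0.0341). Of the 11 fits with 1 rat left out, it passed in 2, those lacking degarelix only replicate 4 or FSH replicate 4, and the adjusted p reached 0.0899. Calls over all genes also rose in those 2 fits, to 532 and 553, against 292 with all rats. In the other left-out fits they fell to between 30 and 152. Tmem97 (log2 change -0.33, adjusted p = 0.0604) and Osbpl9 (-0.28, adjusted p = 0.0678) did not pass. The list's median was -0.10, with 12 log2 changes below 0 and 7 above.

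None of the 8 tested genes of esterification and ester hydrolysis passed in edgeR's test (2 at an unadjusted p under 0.05; 1 with DESeq2), with a median of 0.21, 6 above 0 and 2 below. Soat2, the second sterol O-acyltransferase, had 2.78 ± 1.75 CPM (SD, n = 6) and 5.53 ± 2.46 CPM (SD, n = 5), a log2 change of 0.98 ± 0.41 SE (adjusted p = 0.192). Acat2, which despite its name makes acetoacetyl-CoA and not cholesterol ester, had a log2 change of -0.98 ± 0.25 SE (adjusted p = 0.0606). Lcat, the esterifying enzyme of plasma lipoproteins, had 0.26 (adjusted p = 0.310).

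None of the 14 tested efflux transporters and apolipoproteins passed in edgeR's test or with DESeq2 (3 at an unadjusted p under 0.05), with a median of 0.12, 10 above 0 and 4 below. Clu, a secreted apolipoprotein also called apolipoprotein J, had 498 ± 82.6 CPM (SD, n = 6) and 618 ± 62.8 CPM (SD, n = 5), a log2 change of 0.31 ± 0.12 SE (adjusted p = 0.147). Apod had a fitted log2 change of 5.08 (adjusted p = 0.0959) that came from 1 rat: it was at 125 CPM in FSH replicate 3 and at 0.706 to 1.21 CPM in the other 4 FSH rats, and without that rat the log2 change was 0.36.

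Of 14 tested genes of the LXR list, 1 passed, as lower: Rxra, the retinoid X receptor that pairs with LXR and with other nuclear receptors. It went from 60.5 ± 9.58 CPM (SD, n = 6) to 36.8 ± 7.58 CPM (SD, n = 5), with no overlap (log2 change -0.72 ± 0.14 SE, edgeR adjusted p = 0.0335). Of the 11 fits with 1 rat left out it passed in 5, those lacking replicate 2, 3 or 4 of degarelix only or replicate 3 or 4 of FSH, and the adjusted p reached 0.0893 in the others. Over all genes, 92 to 553 passed in those 5 fits and 30 to 78 in the others. The LXR genes Nr1h3 and Nr1h2 themselves had log2 changes of 0.08 (adjusted p = 0.616) and 0.10 (adjusted p = 0.260). Mylip, an LXR target that encodes a ubiquitin ligase, had 0.36 ± 0.12 SE (adjusted p = 0.114), and Srebf1 had -0.27 (adjusted p = 0.155). The list's median was -0.08, with 7 above 0 and 7 below, and its members Abca1, Abcg1 and Apoe had -0.16, 0.28 and 0.34.

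Of 25 tested genes of SREBP-2 and its sterol synthesis targets, 4 passed, all lower (13 at an unadjusted p under 0.05, 11 with DESeq2 and 5 with limma-voom), and the median was -0.34 with 23 below 0 and 2 above. They were Insig1 (log2 change -1.17), which holds SREBP in the endoplasmic reticulum, and the sterol synthesis enzymes Cyp51 (-0.99), Fdft1 (-0.57) and Dhcr7 (-1.20). With 1 rat left out, the call of Insig1 stood in 10 of 11 fits, that of Cyp51 in 6, that of Fdft1 in 2 and that of Dhcr7 in 1. Fdft1 passed without degarelix only replicate 4 or FSH replicate 4, and Dhcr7 without degarelix only replicate 4. In those fits 532 and 553 genes of the whole table passed, and 30 to 152 in the other left-out fits. This list was drawn up with earlier results of these data known and is given as the setting of the 8 genes, which had a median of -0.04.

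**Figure D4:**
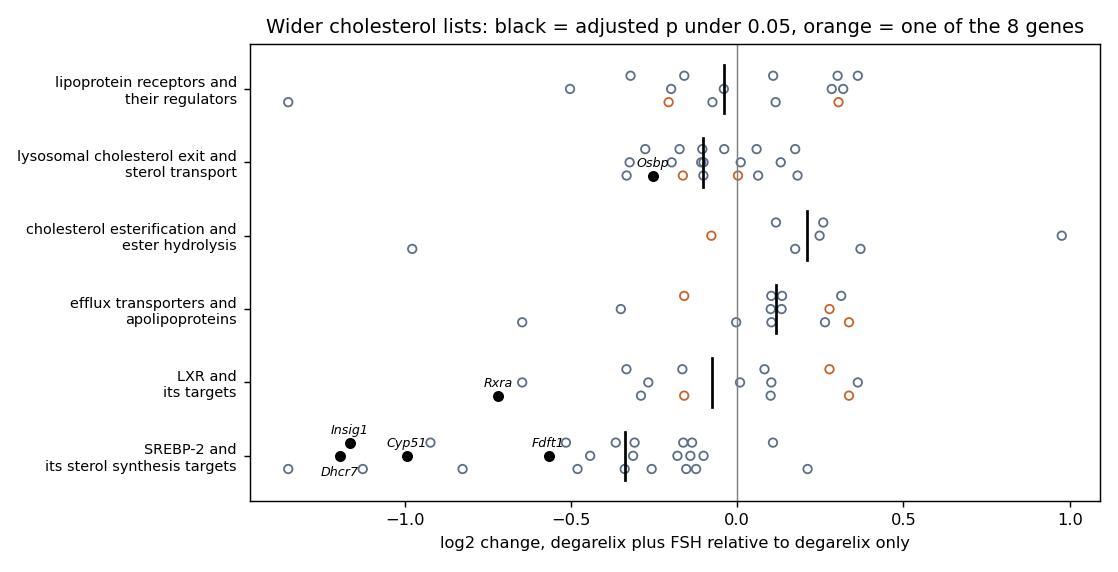
Log2 change with FSH of each tested gene in 6 wider lists, 1 circle per gene, with a black bar at the list's median; genes in 2 lists appear in both. Black points passed an adjusted p of 0.05, orange circles are genes of the 8, and Apod (5.08) is left off the axis. The 6 genes that passed all lie below 0, and the 8 genes lie between -0.21 and 0.34.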

How the data were processed

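RNA from 11 rats was made into stranded, paired-end mRNA libraries, per the labels' protocols. The authors deposited a table of raw counts, with Ensembl genes in rows and 1 column per rat; the values are whole numbers and carry no normalization. STAR, edgeR, DESeq2 and build rn6 are named without roles in the submitters' processing notes. For the counting program, annotation and strand setting, the sources used here give nothing, so overlapping, antisense and near-identical genes can share counts. Columns were matched to rats by the labels. Pcmt1 was left out because 1 cell holds no number.

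The comparison was fitted on the whole table in R 4.3.3 by edgeR 4.0.16 (filterByExpr, TMM, robust quasi-likelihood F test on 9 residual degrees of freedom), two-sided. A gene passed at a Benjamini-Hochberg adjusted p under 0.05. SEs were derived from the F test, and 95% intervals use its total degrees of freedom. They are not adjusted for the number of genes. CPM is relative to the TMM-scaled total, with SD between rats. Log2 CPM used a prior count of 2. A count of 0 allows 0.127 to 0.228 CPM (3 counts of the total), for counting error only. Levels were not compared between genes, because transcript lengths were not used here. Marker sums were tested by exact permutation over 462 splits (smallest possible p 0.00216) and adjusted over 13 lists, and relations by 100000 permutations within groups.

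The 8 genes and all lists were chosen with earlier results of these data known. Of 204 listed symbols, 194 matched directly, 1 by synonym, 8 not and 1 stood on several rows. The rule for named genes took the 8 genes, every member of another list past the threshold (at least the 3 of smallest p), and the 2 genes most like each of the 8. Not every gene this rule picks is reported here. Nr1h2, Nr1h3, the adipose marker Fabp4 and the liver marker Alb were named after their values were seen. The alternatives were DESeq2's and upper-quartile factors, no filter, at least 1 CPM in 5 libraries, each rat left out, a block for the replicate number, the DESeq2 1.42.0 test, limma-voom (limma 3.58.1) and edgeR without robust estimation. For marker sums and relations, DESeq2's factors, each rat left out (sums) and a prior count of 0.5 (relations) were tried. The edgeR step was tested on simulated data of 12758 genes with 200 changed: it recovered 48 of 50 at 3-fold and made 4 false calls among 121.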

Additional observations from a re-analysis of the deposited data

Results flagged for a closer look

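The genes most like each of the 8, and those named after their values were seen, were not part of this check. It covered the 8 genes, the genes the naming rule took from the other lists, and each marker sum. Each was checked in both groups for a rat far from the rest (Dixon's ratio, 95% level), 76 groups in all for 25 genes and 13 marker sums. Chance marks about 1 in 20 such groups, and 6 were found. None of the 8 cholesterol genes was among them. The summed macrophage markers were at 716 CPM in degarelix only replicate 4, against 363 to 473 CPM in the other rats of the group. Soat2 was at 6.11 CPM in the same rat, against 1.35 to 2.97 CPM. Apod was at 125 CPM in FSH replicate 3, against 0.706 to 1.21 CPM, and at 1.80 CPM in degarelix only replicate 6, against 0.296 to 0.701 CPM. Mylip was at 113 CPM in FSH replicate 2, against 76.0 to 86.5 CPM. The summed blood markers were at 1231 CPM in FSH replicate 4, against 332 to 544 CPM.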

How the results depend on the processing

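Over 19 alternatives, Lrp1, Npc2, Abca1, Abcg1 and Apoe kept their direction and did not pass in any. The count of the 8 genes past the threshold was 1 with DESeq2 and 0 to 1 with 1 rat left out. The 1 was Scarb1 in both cases, with a log2 change of 0.30 with DESeq2, and 0.25 to 0.36 with 1 rat left out (0.36 without FSH replicate 4, where it passed). The sign of Npc1 turned, at values near 0: -0.0045 with DESeq2's size factors in edgeR, -0.0012 without a filter and -0.0054 with DESeq2, and from -0.041 to 0.041 with 1 rat left out. Soat1 had -0.30 to 0.062 with 1 rat left out, and was above 0 without degarelix only replicate 4 (0.062), FSH replicate 4 (0.0018) or FSH replicate 5 (0.026). The cause of these shifts was not tested. Over all genes, 292 passed, against 1135 with DESeq2 and 30 to 553 with 1 rat left out (30 without FSH replicate 2). The count was 532 without degarelix only replicate 4, 553 without FSH replicate 4 and at most 152 with any other rat left out. With the replicate number as a block 14 passed and none of the 8 genes did; the labels do not say that a number is shared between groups, the correlation of same-numbered rats' deviations ran from -0.11 to 0.13, and 2 of 10 rats correlated best with their own number. No marker sum and no relation passed in any alternative tried for it. Depth limits Soat1 most, at 41 to 104 counts per library.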
